A study of Mus musculus with 4 samples.

Results

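The matrix metalloproteinase (MMP), ADAMTS, ADAMTS-like and TIMP genes were followed in ATDC5 cells in which the leucine-rich repeat protein gene Chadl was targeted by RNA interference. The families were taken as every probe set with a single gene symbol that begins with Mmp, Adamts or Adamtsl followed by a digit, or that is Timp1 to Timp4. This gave 70 probe sets for 40 of the 17097 genes on the array, namely 18 MMPs, 14 ADAMTS proteases, 5 ADAMTS-like genes and 3 TIMPs. Genes of these families that the annotation does not name with a single symbol, Timp4 among them, were not analysed here. ATDC5 is an established mouse cell line that forms cartilage-like matrix in differentiation medium. Control cells received a scrambled duplex RNA and knockdown cells a duplex against Chadl. The duplexes against Chadl were 27-mers, of which only 1 sequence was reported as effective, and transfection was at 30 nM with Lipofectamine 2000 in both groups. Medium was replaced by differentiation medium after 16 h, and RNA was labelled after 5 days of differentiation. There were 2 control and 2 knockdown arrays, called biological replicates, and p-values measure only the spread between these arrays, which may be technical where cultures were not separate.

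MMPs are zinc endopeptidases, made as inactive proenzymes, that cut collagens, gelatin, proteoglycans and other matrix proteins. ADAMTS proteases carry thrombospondin type 1 repeats that hold them in the matrix; some cut aggrecan and versican, others trim procollagens. ADAMTS-like proteins have the repeats without a protease domain, and several of them bind microfibrils. TIMPs are small secreted proteins that block the active sites of these enzymes. In cartilage, Mmp13 is the collagenase of hypertrophic chondrocytes, Adamts4 and Adamts5 are the aggrecanases, and TIMP-3 is the inhibitor that acts on both MMPs and aggrecanases.

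Many MMP genes lie side by side, and the sequence before their start sites is shown here because the signal of that whole neighbourhood was low on every array. In the order of RefSeq coding genes on mouse chromosome 9, Mmp13, Mmp12, Mmp1b, Mmp3, Mmp1a, Mmp10, Mmp8, Mmp20 and Mmp7 followed one another, with only Mmp27, not analysed here, between Mmp8 and Mmp20. RefSeq promoter windows of build GRCm38.p6 were found for 26 of the 40 members, as 29 windows of 250 bases before a start site. The AP-1 motif TGANTCA, which reads the same way on both strands, was found in 8 of the 29 windows and in 6.75% of all 32851 windows. All 8 lay in this neighbourhood, which holds 11 of the windows, and the 18 windows of members elsewhere had none. The TATA box TATAAA was searched on both strands and was found in 9 of the 29 windows (12.4% of all windows), 7 of them in the neighbourhood. The RUNX motif ACCACA, also on both strands, was found in 5 of 29 (14.05% of all windows). The motifs found did not overlap one another in the stretches printed. The last 100 bases before the start site are given 5′ to 3′ for the 8 genes with the AP-1 motif, with AP-1 and TATA matches in capitals.
Mmp13, chr9:7272414-7272513, plus strand: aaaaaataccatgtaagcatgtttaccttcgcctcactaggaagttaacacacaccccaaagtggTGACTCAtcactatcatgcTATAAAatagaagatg
Mmp12, chr9:7347274-7347373, plus strand: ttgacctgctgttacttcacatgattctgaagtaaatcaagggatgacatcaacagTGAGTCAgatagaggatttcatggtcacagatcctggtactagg
Mmp1b, chr9:7388027-7388126, minus strand: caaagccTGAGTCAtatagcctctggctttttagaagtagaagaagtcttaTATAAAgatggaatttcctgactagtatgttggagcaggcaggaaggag
Mmp3, chr9:7445722-7445821, plus strand: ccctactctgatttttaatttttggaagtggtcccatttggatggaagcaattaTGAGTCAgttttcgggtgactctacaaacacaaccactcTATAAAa
Mmp1a, chr9:7464041-7464140, plus strand: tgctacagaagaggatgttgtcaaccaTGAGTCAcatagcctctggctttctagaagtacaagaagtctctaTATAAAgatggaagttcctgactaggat
Mmp10, chr9:7502242-7502341, plus strand: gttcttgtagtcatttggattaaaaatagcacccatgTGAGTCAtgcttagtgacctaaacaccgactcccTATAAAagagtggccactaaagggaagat
Mmp20, chr9:7628131-7628230, plus strand: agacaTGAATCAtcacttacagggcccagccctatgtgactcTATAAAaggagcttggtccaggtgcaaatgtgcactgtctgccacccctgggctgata
Mmp7, chr9:7691990-7692089, plus strand: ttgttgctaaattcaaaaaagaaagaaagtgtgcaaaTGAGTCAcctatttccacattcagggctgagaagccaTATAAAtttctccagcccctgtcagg
The first base of the AP-1 match lay 35 bases before the start in Mmp13, 46 in Mmp3, 63 in Mmp10 and in Mmp7, and 95 in Mmp20. Of the 2 windows listed for Mmp12 only the one shown had the motif, and of those for Mmp7 only the one shown. The Mmp8 window had no match to any of the motifs. The same stretch is given for 3 members outside the neighbourhood on whose values the results below turn, and their windows held none of the motifs searched.
Timp2, chr11:118355412-118355511, minus strand: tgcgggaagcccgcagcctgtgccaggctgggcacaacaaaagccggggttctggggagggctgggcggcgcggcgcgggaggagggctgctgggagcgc
Timp3, chr10:86300312-86300411, plus strand: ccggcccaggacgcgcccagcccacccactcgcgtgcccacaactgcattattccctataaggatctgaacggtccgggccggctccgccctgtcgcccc
Adamts9, chr6:92943535-92943634, minus strand: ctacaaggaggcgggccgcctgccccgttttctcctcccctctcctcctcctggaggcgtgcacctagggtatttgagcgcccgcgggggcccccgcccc
A match is a description of the letters, and no binding was measured.

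The targeted gene and the arrays as a whole set the frame for the families. The single Chadl probe set gave 4.91 and 4.84 for the controls, 4.29 for knockdown 1 and 4.64 for knockdown 2 on the log2 scale of the array signal (difference -0.41, SE 0.12, limma adjusted p = 0.728). Chadl lay 1.49-fold below the control mean in knockdown 1 and 1.18-fold below it in knockdown 2. Its mean signal of 4.67 was under the median of all genes (4.86). Over all genes the SD of the difference between the knockdown arrays was 0.20, against 0.10 between the controls. Knockdown 1 was the array farther from the controls. Of the chondrocyte markers, the type II collagen gene Col2a1 gave 9.01 and 9.08 for the controls against 8.23 and 9.17, and the chondrocyte transcription factor gene Sox9 gave 7.52 and 7.47 against 7.50 and 7.49. Of 10 such markers, 1 (Col11a1, 0.15) was higher and 2 (Col11a2, -0.36, and Hapln1, -0.41) were lower at an unadjusted p under 0.05, and none passed. Of all genes, 4.15% were higher and 2.52% lower at this p. By sign alone most of the 10 markers leaned down, 8 being negative and 2 positive (median -0.16). Among all 17097 genes 8082 were negative and 9015 positive. The knockdown 1 array read above the control mean for 2 of the 10 markers (median -0.25). The knockdown 2 array did so for 5 of them (median 0.019). The summed linear signal of the 10 was 1712 to 1764 in the controls, 1504 in knockdown 1 and 1908 in knockdown 2. The 6 macrophage markers, listed because macrophages are a source of MMPs, had a summed linear signal of 103 to 108 in the controls and 98 to 107 in the knockdowns, and the brightest, Cd14, gave 5.05 and 4.93 against 4.66 and 5.11. The leukocyte marker Ptprc gave 3.30 and 3.32 against 3.45 and 3.23, and no marker is at 0 on this scale. Fewer cells of a type and less RNA per cell cannot be told apart in such samples.

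No member passed the test over all genes. Array values are log2 signals, given for control 1 and control 2 and then for knockdown 1 and knockdown 2. Differences are the knockdown mean minus the control mean on that scale, intervals are 95% confidence intervals, and groups without overlap have both knockdown arrays on the same side of both controls. Knockdown was set against control with limma on log2 signal, each gene being read by its brightest probe set, and 0 of the 40 members had a Benjamini-Hochberg adjusted p under 0.05, as had 0% of all genes. At an unadjusted p under 0.05, 6 members were higher in knockdown (4.15% of all genes were) and 0 were lower (2.52% of all genes were), and 6.67% of all genes reached it in either direction. The 6 were Timp2, Mmp11, Adamts3, Adamts4, Adamts16 and Adamtsl1. That count depended on the processing. With the mean of a gene's probe sets Timp2, Adamts3 and Adamts4 were lost. There 3 were higher and 0 lower, beside 3.94% and 2.7% of all genes. With the replicate block 7 were higher and 1 was lower, beside 4.12% and 2.01% of all genes. The block added Adamts6 on the higher side and Adamtsl2 on the lower. Without control 1 the differences of the 6 named above were 0.32 to 0.79, and without control 2 they were 0.23 to 0.90. Both knockdown arrays read above both controls for 13 of 40 members, against 21.2% of all genes, and below both for 2, against 17.1%. The median log2 difference of the members was 0.041, with 0.057 in knockdown 1 and 0.018 in knockdown 2, beside 0.0067, -0.0031 and 0.014 over all genes. An exact permutation test of 2 arrays against 2 cannot go below p = 0.333, so single values have no such test.

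The members parted by signal, and members below the median of all genes are called dim in the text. The 19 members at or above the median signal of all genes (4.86) had a median difference of 0.096, and 15 of them were positive and 4 negative. Over all 8549 genes with a signal that high the median was 0.0084, with 4570 positive and 3979 negative. All 6 members with an unadjusted p under 0.05 were among the 19. Among all genes with a signal that high, 5.36% were higher and 3.04% lower at this p, 8.4% in all. Both knockdown arrays lay above the control pair for 10 of the 19 members (23.9% of all such genes) and below it for 1 (17.3%). The 21 members below the median had differences between -0.12 and 0.18, with 8 positive and 13 negative.

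**Figure D1:**
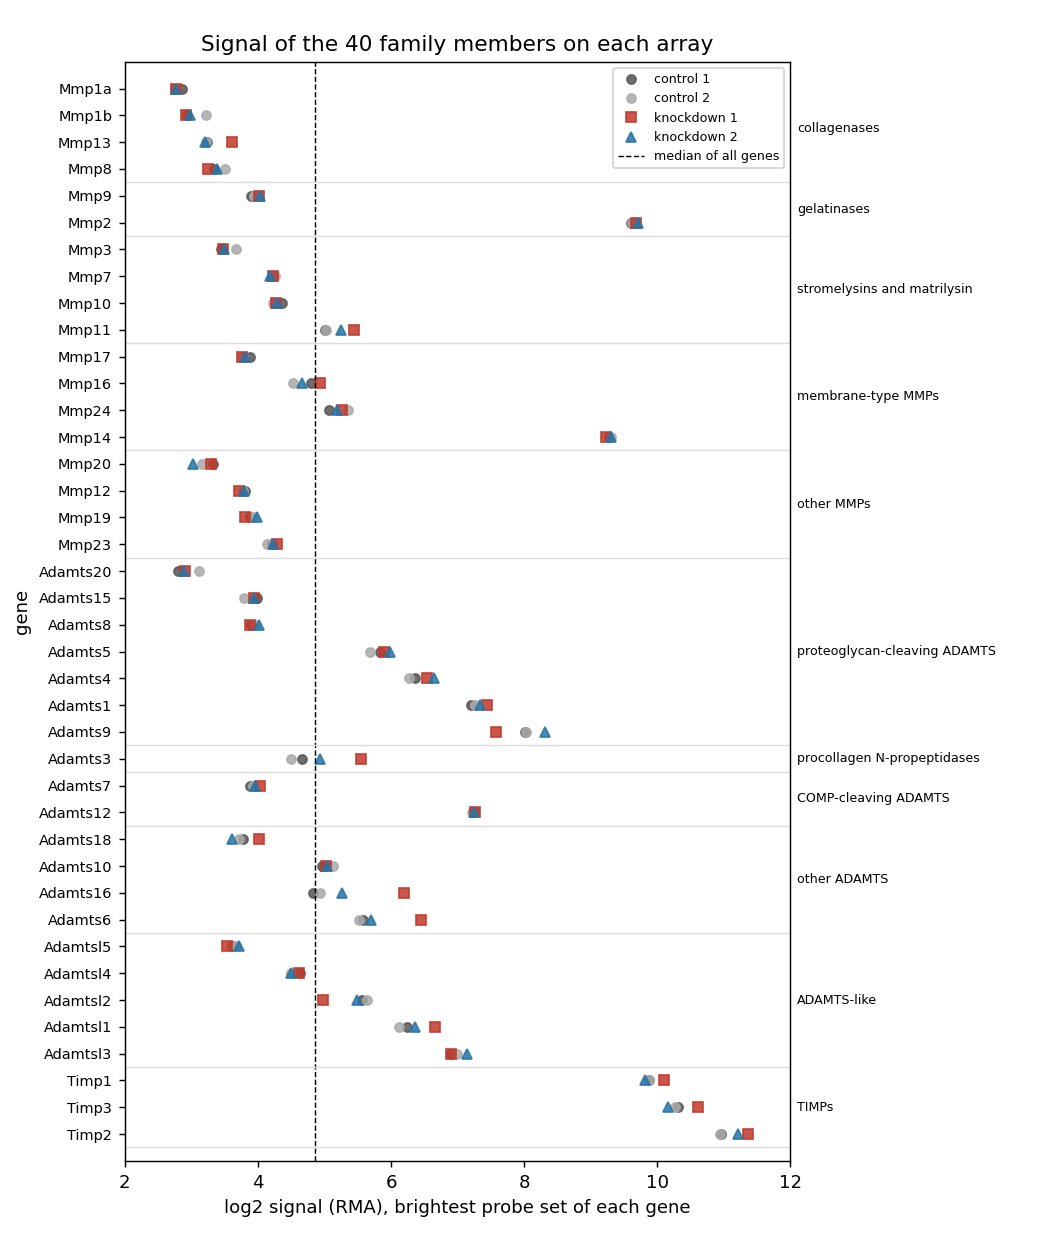
Log2 signal of the brightest probe set of each of the 40 members (horizontal axis) on each control and knockdown array, grouped by role, with the median of all genes dashed. The 9 MMP genes of the chromosome 9 neighbourhood lie between 2.76 and 4.36, below the dashed line on every array, and the 3 TIMPs lie between 9.81 and 11.37.

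The collagenases were dim. Mmp13, the main collagenase of hypertrophic cartilage, read 3.23 and 3.22 for the controls, then 3.61 and 3.20 for the knockdowns. It was higher in knockdown 1 alone, and the groups overlapped (difference 0.18, 95% confidence interval -0.14 to 0.49, adjusted p = 0.815). The neutrophil collagenase gene Mmp8 and the interstitial collagenase genes Mmp1a and Mmp1b, close copies of each other whose probes may share signal, had differences of -0.11, -0.051 and -0.12. Over the whole neighbourhood, both knockdown arrays lay above the control pair for 0 of 9 genes (21.2% of all genes), and for 1, the matrilysin gene Mmp7, they lay below it (17.1% of all genes; 4.23 and 4.26 against 4.23 and 4.19). That ordering of Mmp7 rests on a difference of -0.036. The other neighbourhood members were the stromelysin genes Mmp3 (-0.074) and Mmp10 (-0.016), the macrophage elastase gene Mmp12 (-0.036) and the enamelysin gene Mmp20 (-0.078).

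For the gelatinase gene Mmp2 and its cell-surface activator Mmp14 the arrays lay close together. Mmp2, which encodes gelatinase A, read 9.61 and 9.62 in the control pair and 9.68 and 9.71 in the knockdown pair. The 2 knockdown arrays lay just above the controls (difference 0.084, SE 0.042, interval -0.018 to 0.19). Mmp14, whose membrane-bound product also cuts collagen directly, read 9.27 and 9.30 against 9.23 and 9.30, with overlapping groups and an interval of -0.14 to 0.11. The SEs of Mmp2 and Mmp14 (0.042 and 0.050) were the smallest of the 40 members. Gelatinase B (Mmp9), typical of osteoclasts and leukocytes, was dim at 3.90 and 3.94 against 4.01 and 4.03. Its other probe set read 3.88 and 3.84 against 4.08 and 3.79, so the separation of the groups was not seen in both.

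Mmp11 was the MMP with the smallest p. Mmp11 encodes stromelysin-3, an MMP that is activated inside the cell by furin-type convertases and is typical of stromal cells. It read 5.00 and 5.03 in control cells against 5.44 and 5.25 after knockdown. Both knockdown arrays were above both controls, 1.34-fold and 1.18-fold over the control mean (difference 0.33, SE 0.095, unadjusted p = 0.0112, limma adjusted p = 0.716). It has a single probe set. Of the other MMP genes that encode membrane-type enzymes, Mmp24 read 5.07 and 5.35 against 5.27 and 5.19. Its groups overlapped (difference 0.018), and 2 of its 3 probe sets had the opposite sign. Mmp16 and Mmp17 differed by 0.13 and -0.045. The remaining Mmp19 and the membrane-anchored Mmp23 differed by -0.0080 and 0.087.

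Among the proteoglycan-cleaving ADAMTS genes, both aggrecanases read above control in both knockdown arrays. Adamts4, or aggrecanase-1, read 6.36 and 6.28 for the controls, then 6.53 and 6.65 for the knockdowns. The groups did not overlap (difference 0.27, SE 0.085, interval 0.069 to 0.48, unadjusted p = 0.0163, limma adjusted p = 0.728), and its dim other probe set differed by 0.030 with overlap. Adamts5, or aggrecanase-2, read 5.84 and 5.69 against 5.89 and 5.98. Its difference was 0.17 (SE 0.092, interval -0.050 to 0.39), with no overlap, and 0.095 without control 2. All 4 Adamts5 probe sets had a positive difference, from 0.017 to 0.20, and in 2 of them the groups did not overlap. In both genes knockdown 2 lay farther above control than knockdown 1.

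Adamts1, an immediate-response protease that cuts versican and aggrecan, read 7.21 and 7.26 in the control pair and 7.44 and 7.33 in the knockdown pair. Its difference was 0.15 (interval -0.031 to 0.33), with no overlap. Adamts1 and Adamts5 are direct neighbours on chromosome 16. Adamts8 and Adamts15, neighbours on chromosome 9 apart from the MMP genes, were dim and differed by 0.020 and 0.063, and Adamts20 differed by -0.064.

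Adamts9 lay on opposite sides of control in the knockdown arrays. Adamts9 encodes a protease of versican that is also needed for the growth of cilia. It read 8.01 and 8.03 in the controls, 7.57 in knockdown 1 and 8.31 in knockdown 2. The control arrays differed by 0.018 and the knockdown arrays by 0.74, so the mean difference of -0.079 (interval -0.59 to 0.43) describes neither. The same split appeared in all 3 probe sets. The other 2 probe sets were lower than the control mean by 0.66 and 0.44 in knockdown 1 and higher by 0.43 and 0.075 in knockdown 2. In limma without knockdown 2 the gene was lower (-0.45, adjusted p = 1.21e-05), and without knockdown 1 it was higher (0.29, adjusted p = 0.00268), each fit assuming for a single knockdown array the spread seen between controls.

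The largest differences of the families were in Adamts16, Adamts3 and Adamts6, and most of each lay in knockdown 1. Adamts16, a protease known for work on renal and genital tissue, read 4.82 and 4.93 in control cells against 6.19 and 5.26 after knockdown. This was 2.49-fold and 1.30-fold above the control mean, with no overlap (difference 0.85, SE 0.27, interval 0.19 to 1.51, unadjusted p = 0.0192, limma adjusted p = 0.728). It was the only member over 2-fold from the control mean in either array. Its dimmer probe set read 4.21 and 4.20 against 4.39 and 4.38, alike in both knockdown arrays.

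Adamts3, which removes the amino-terminal propeptide of type II procollagen and activates the lymphatic growth factor VEGF-C, read 4.65 and 4.50 for the controls, then 5.55 and 4.93 for the knockdowns. The groups did not overlap (difference 0.67, SE 0.20, unadjusted p = 0.0131, limma adjusted p = 0.728). The other Adamts3 probe set, dimmer at 3.54 and 3.53 against 3.67 and 3.41, showed a difference of 0.0040. With Adamts16, whose probe sets differed by 0.67 in this quantity, it showed the widest gaps between probe sets, 0.66 in its case. Adamts6 read 5.58 and 5.52 against 6.44 and 5.70 (difference 0.52, SE 0.22, adjusted p = 0.748), and its dimmer probe set was higher in knockdown 1 by 0.45 and in knockdown 2 by 0.022.

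Col2a1, the gene of the collagen that Adamts3 trims, was lower in knockdown 1 and slightly higher in knockdown 2. The remaining proteases lay close to control. The COMP-cleaving Adamts12 read 7.25 and 7.21 in the control pair and 7.25 and 7.25 in the knockdown pair, with an interval of -0.15 to 0.18. Adamts7, the other protease of that pair, was dim and differed by 0.079. Adamts10, a fibrillin-binding protease, read 4.97 and 5.13 against 5.02 and 5.03, with overlap. Its difference was -0.021 and that of the dim Adamts18 was 0.070, the latter with 2 of 3 probe sets of opposite sign.

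**Figure D2:**
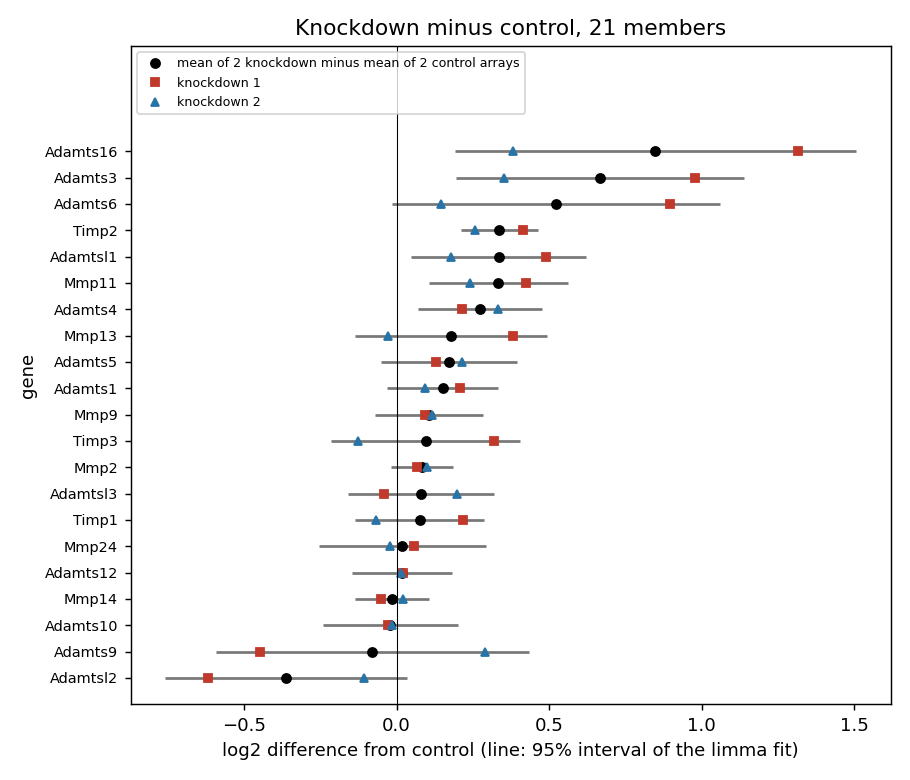
Log2 difference from the control mean (horizontal axis) for the 21 members named by rule: black points are the mean of both knockdown arrays, lines the 95% interval of the limma fit, squares knockdown 1 and triangles knockdown 2. For Adamts16, Adamts3 and Adamts6 knockdown 1 lies at 1.31, 0.98 and 0.90 and knockdown 2 at 0.38, 0.35 and 0.15, while Adamts9 has its arrays on either side of 0.

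Of the ADAMTS-like genes, Adamtsl1 read higher and Adamtsl2 lower. Adamtsl1 encodes punctin, a secreted matrix protein. It read 6.23 and 6.12 in control cells against 6.67 and 6.36 after knockdown, with no overlap (difference 0.33, SE 0.12, unadjusted p = 0.0284, limma adjusted p = 0.728). In all 3 of its probe sets both knockdown arrays exceeded both controls. The dimmest read 4.26 and 4.26 against 4.70 and 5.00, a difference of 0.59, and the third 4.70 and 4.78 against 5.05 and 5.22. In those 2 dimmer probe sets knockdown 2 was the higher array, while in the brightest knockdown 1 was.

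Adamtsl2, a microfibril protein whose loss causes geleophysic dysplasia, read 5.56 and 5.63 for the controls, then 4.98 and 5.49 for the knockdowns. It was the only member besides Mmp7 with both knockdown arrays below both controls (difference -0.36, SE 0.16, interval -0.76 to 0.034, adjusted p = 0.752), and most of the difference lay in knockdown 1. Adamtsl3 read 6.91 and 6.98 against 6.90 and 7.15 with overlap. Adamtsl4 and Adamtsl5 differed by -0.010 and -0.0096.

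The inhibitor genes gave the member with the smallest p, Timp2, whose probe sets disagreed. TIMP-2 blocks MMPs and, bound to the Mmp14 product, takes part in the activation of gelatinase A. The brightest Timp2 probe set read 10.96 and 10.95 in the control pair and 11.37 and 11.21 in the knockdown pair. This was 1.26-fold higher with no overlap (difference 0.34, SE 0.052, interval 0.21 to 0.46, unadjusted p = 0.000513, limma adjusted p = 0.506). A probe set of nearly the same signal read 10.95 and 10.97 against 11.06 and 11.09, a difference of 0.11. The other 3 lay on the other side of 0. They read 10.41 and 10.49 against 10.38 and 10.47, then 9.02 and 9.05 against 9.02 and 9.02, and the dimmest 6.08 and 6.17 against 5.95 and 5.99, with differences of -0.020, -0.019 and -0.15. Both the size and the sign of the Timp2 difference depended on the probe set, and the mean of the 5 gave a difference of 0.051 (limma unadjusted p = 0.261). Which transcript ends the probe sets read is not given in the sources used here.

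Timp3 and Timp1 were higher in knockdown 1 and not in knockdown 2. TIMP-3 is held in the matrix and is the TIMP that blocks the aggrecanases. Timp3 read 10.31 and 10.27 in control cells against 10.61 and 10.16 after knockdown (difference 0.10, interval -0.21 to 0.41, adjusted p = 0.901). All 4 probe sets showed the split, 0.32 to 0.48 above the control mean in knockdown 1 and 0.012 to 0.13 below it in knockdown 2. Without knockdown 2 the difference was 0.32 (limma adjusted p = 3.45e-07), and without knockdown 1 it was -0.13 (adjusted p = 0.0161). Timp1, a TIMP induced by cytokines, read 9.88 and 9.87 against 10.09 and 9.81, with a difference of 0.22 without knockdown 2 and of -0.068 without knockdown 1.

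**Figure D3:**
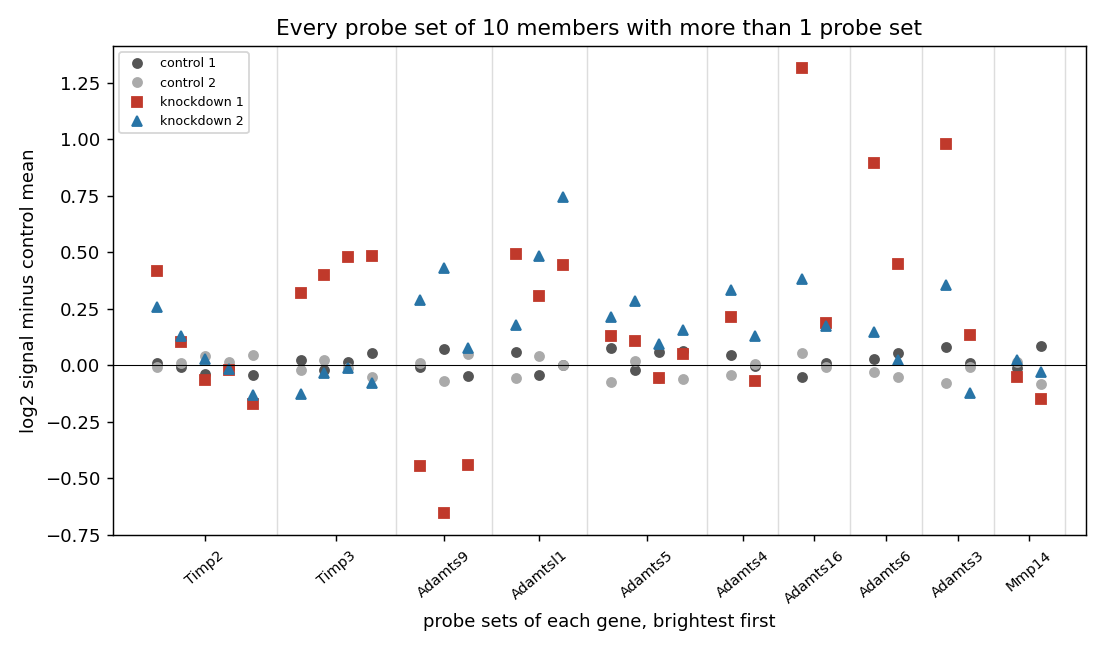
Log2 signal minus the control mean (vertical axis) for every probe set of 10 members with more than 1 probe set, brightest first within each gene, on each control and knockdown array. The 3 Adamts9 and 4 Timp3 probe sets repeat the split between knockdown 1 and knockdown 2, the 3 Adamtsl1 probe sets all lie above control, and the 5 Timp2 probe sets spread from -0.15 to 0.34 in mean difference.

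Probe sets of a gene share the arrays and are no replicates, and their places on the transcripts were not compared here. Of the 40 members, 22 had 1 probe set and 18 had several. In 14 of the 18 all probe sets had the sign of the brightest, and in 4 (Timp2, Mmp24, Adamts18 and Mmp19) some did not. Over the 70 member probe sets, tested within all 45037 probe sets, 0 passed, beside 0.00222% of all probe sets. At an unadjusted p under 0.05 there were 10 higher and 0 lower, beside 3.42% and 3.83% of all probe sets (7.26% in all). Both knockdown arrays lay above the control pair for 20 of the 70 (18.6% of all probe sets) and below it for 7 (19.9%).

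The spread between the knockdown arrays was wider than that between the controls in the families together. Over the 40 members the SD of the difference was 0.13 between the controls and 0.30 between the knockdowns. Of the 40, 29 lay farther from the control mean in knockdown 1, as did 10001 of all 17097 genes. For 14 of the 40 the knockdown arrays lay on opposite sides of the control mean, as for 7031 of all 17097 genes. Over the 18 MMPs the SD was 0.15 for either pair, and over the 14 ADAMTS genes it was 0.14 for the controls and 0.43 for the knockdowns. Of the 18 MMPs only 4 were at or above the median signal. Over the 21 dim members of all families the SDs were 0.15 and 0.17, and over the 19 brighter members 0.11 and 0.40, so family and signal cannot be told apart here. Knockdown 1, whatever the value of knockdown 2, lay above both controls for 19 members (38.4% of all genes) and below both for 12 (39.4%). Knockdown 2, taken likewise, lay above both for 19 (41.7%) and below both for 7 (31.8%), and 13 members and 2 members are in the counts of both arrays.

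With a single knockdown array the limma calls differed by array. Without knockdown 2, 10 members were called higher (8.94% of all genes) and 2 lower (6.18%), where 15.1% of all genes were called in either direction. They were Adamts1, Adamts3, Adamts6, Adamts16, Adamtsl1, Mmp11, Mmp13, Timp1, Timp2 and Timp3 on the higher side and Adamts9 and Adamtsl2 on the lower. Without knockdown 1, 4 were called higher (1.91% of all genes), namely Adamts4, Adamts9, Adamts16 and Timp2, and 1 lower (1.37%), Timp3, where 3.28% of all genes were called. Adamts16 and Timp2 were thus called in both fits in the same direction, and Adamts9 and Timp3 in both in opposite directions. Each of these fits has 1 knockdown array and borrows its spread from the controls, so it compares that array with the controls rather than the treatments. Without control 1 or without control 2, 0 members were called, as were 0 genes.

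**Figure D4:**
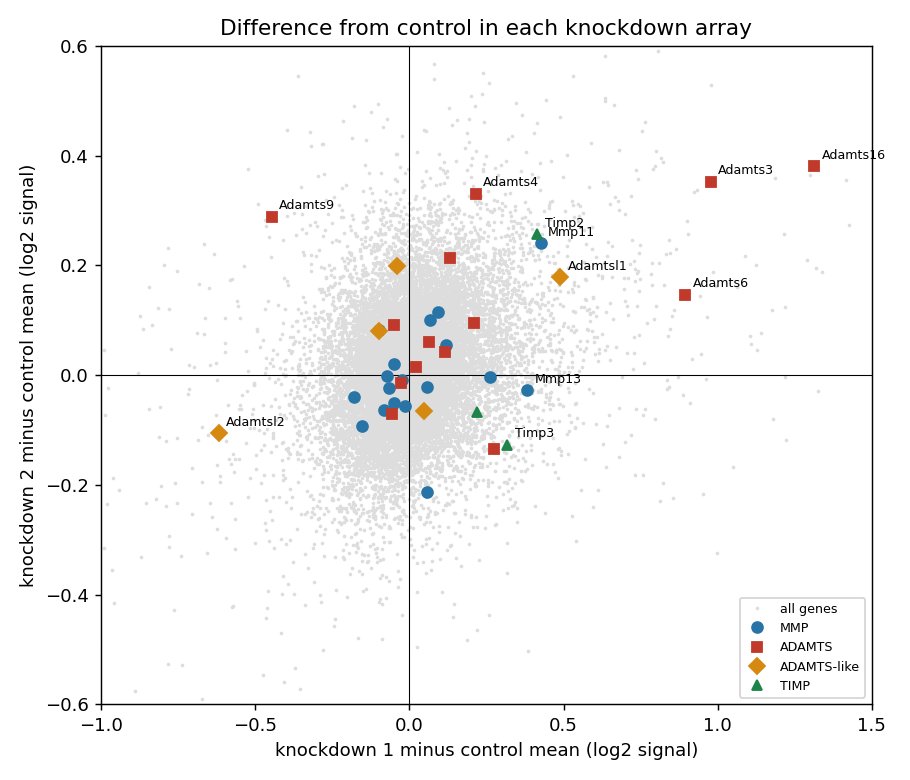
Log2 difference from the control mean in knockdown 1 (horizontal axis) and knockdown 2 (vertical axis) for the 40 members by family, over all genes in grey, of which 60 lie outside the axes. Adamts16, Adamts3 and Adamts6 lie far to the right (1.31, 0.98 and 0.90 in knockdown 1), Adamts9 lies at upper left and Timp3 at lower right.

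Regulators of these enzymes were read from lists of related genes. Of 18 measured activators and inhibitors outside the families, 0 passed over all genes, and the median difference was 0.015. At an unadjusted p under 0.05, 0 were higher (4.15% of all genes) and 1 was lower (2.52%). The lower one was Cd44, the hyaluronan receptor that docks MMPs at the cell surface, with 9.93 and 9.97 for the controls, then 9.56 and 9.81 for the knockdowns. Of 11 measured transcription factors known to act on MMP promoters, 2 were higher and 0 lower at this p, beside 4.15% and 2.52% of all genes. The 2 higher ones were the AP-1 subunit gene Jun, at 7.41 and 7.36 against 7.75 and 7.58, and Ets1, at 9.16 and 9.08 against 9.44 and 9.29. The median of the 11 was 0.086 for the mean of the knockdown arrays, 0.18 for knockdown 1 and -0.030 for knockdown 2. Of the 11, 6 had the arrays on opposite sides of the control mean, as had 7031 of all 17097 genes. The AP-1 subunit gene Fos read 4.45 and 4.43 against 4.62 and 4.19. None of the 11 passed.

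Among 13 measured substrates, 2 were higher (4.15% of all genes) and 1 was lower (2.52%) at this p, and none passed. Versican (Vcan), a proteoglycan cut by Adamts1, Adamts4, Adamts5 and Adamts9, read 6.65 and 6.61 in the control pair and 7.31 and 7.04 in the knockdown pair. Both knockdown arrays were higher (difference 0.55, SE 0.10, unadjusted p = 0.00156, limma adjusted p = 0.591), though 2 of 5 Vcan probe sets had the opposite sign. Biglycan (Bgn), the other higher one, differed by 0.082, and the type I collagen gene Col1a1, the lower one, by -0.14. Aggrecan (Acan), the substrate that names the aggrecanases, read 5.12 and 5.08 against 5.09 and 5.09. Of 8 ADAM relatives, 1 (Adam19, 0.27) was higher (4.15% of all genes) and 0 were lower (2.52%), and none passed.

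Genes of other responses also parted control from knockdown, and none of them passed. Of 9 measured interferon and double-stranded RNA response genes, 7 were higher at an unadjusted p under 0.05 (4.15% of all genes). Ifit3 (0.28), Ifit1 (0.27) and Ddx58 (0.21) had the smallest p. All 9 lay above the control pair on both knockdown arrays (21.2% of all genes). Their summed linear signal was 5892 to 5945 in the controls and 6928 to 7062 in the knockdowns. Of 8 inflammatory genes, 3 (Cxcl5, 0.61, Ptgs2, 0.37, and Cxcl1, 0.41) lay above the control pair (21.2% of all genes). The sums of the 8 were 605 to 615 in the controls, 956 in knockdown 1 and 669 in knockdown 2. All 5 measured osteoblast markers lay below both controls (17.1% of all genes). Their sums were 2491 to 2527 in the controls, 1211 in knockdown 1 and 1769 in knockdown 2. At an unadjusted p under 0.05, 3 (Ibsp, -2.13, Col1a1 and Dmp1, -0.70) were lower (2.52% of all genes). Adamts4 and Adamts5 lay farther from control in knockdown 2. Of the 40 members, 29, with Adamts16, Adamts3, Adamts6, Timp1 and Timp3 among them, lay farther in knockdown 1 than in knockdown 2. So did 5 of the 9 interferon genes, 7 of the 8 inflammatory genes and 4 of the 5 osteoblast markers, beside 10001 of all 17097 genes. No gene of these lists is at 0, and their part in the values of the members was not tested.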

How the data were processed

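RNA from 4 ATDC5 samples was read on Affymetrix 3′ expression arrays. Per the submitters' processing notes the authors used RMA, of unstated software and version, and their deposited table holds one log2 signal for each probe set and array. That the scale is log2 was inferred from its span, 2.17 to 12.72. RMA equalizes array distributions, which hides a change in total RNA and shrinks differences of dim genes. With 2 arrays per group their number limits the precision. Array medians were 4.24 to 4.25.

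Of 45141 probe sets, 104 array controls were left out. Platform annotation, which can be old, gave 1 symbol to 28898 probe sets, several to 551 and none to 15692. Each gene was read by its probe set of highest mean signal. Groups and replicate numbers come from the titles. The group difference of each gene or probe set was estimated in R 4.3.3 by limma 3.58.1 (lmFit and trended eBayes), with no dim-gene filter, Benjamini-Hochberg adjustment over all genes or all probe sets and a threshold of 0.05; p-values are two-sided. The labels do not say whether replicate numbers pair the arrays, and the main fit used no pairing. Over all genes the correlation of deviations between replicates of the same number was -0.0041. That value cannot show how the cultures or arrays were run. The limma step was tested on simulated data with equal spread in both groups. The arrays here did not have equal spread, so that test does not cover them in this respect.

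Members and gene lists were chosen with earlier results of these data known. Members named with values were those at or above the median signal, with an unadjusted p under 0.05, with probe sets differing by over 0.5, or fixed by role (Timp1 to Timp4, Mmp2, Mmp9, Mmp13, Mmp14, Adamts4, Adamts5), 21 in all; the other 19 are given by their difference, and Mmp7 with array values, added after they were seen. From the lists of related genes and markers, up to 3 with the smallest p under 0.05, otherwise the brightest, were named; Fos, Acan, Col2a1, Sox9 and Ptprc were added after their values were seen. Lists for adipocyte, skeletal muscle and endothelial markers had 1, 0 and 0 members higher at an unadjusted p under 0.05 and 0 lower. Of all genes, 4.15% were higher and 2.52% lower at that p. Alternatives were other scalings, a filter, the mean of probe sets, other moderation, other thresholds, the block and leaving out each array. Promoter sequences are from RefSeq, build GRCm38.p6, and no genome build is given for the arrays.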

Additional observations from a re-analysis of the deposited data

How the results depend on the processing

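With quantile normalization, median centring, dim genes left out (those under the 40th percentile of signal, a lower limit than the median), the mean of probe sets, eBayes without trend, robust eBayes, an adjusted p of 0.1 or a minimum fold of 1.2, and without either control, 0 members and 0 genes passed. The replicate block also gave 0 members, 0 member probe sets and 0 genes at the adjusted threshold. At an unadjusted p under 0.05 it gave 7 members higher (4.12% of all genes) and 1 lower (2.01%), by adding Adamts6 and Adamtsl2. The main fit gave 6 and 0 (4.15% and 2.52% of all genes). At that p the mean of probe sets gave 3 higher (3.94% of all genes) and robust eBayes 5 (4.15%), without Adamts16. With each array left out in turn, 2 to 14 members were higher and 0 to 3 lower. The share of all genes moved too, from 1.16% to 14.8% higher and from 0.766% to 11.4% lower. Each such fit has a single array in 1 group, so its counts describe that array rather than the treatment. No share of all probe sets is given for these fits, so the counts of member probe sets below have no background. Leaving out each array gave 0 to 2584 genes, 0 to 12 members and 0 to 22 member probe sets, the highest without knockdown 2; without knockdown 1 they were 561, 5 and 10. The number of members with both knockdown arrays below both controls was 1 with quantile normalization, with median centring and with dim genes left out. A single knockdown array was an alternative chosen after seeing the data. Knockdown 1 alone lay below both controls for 12 members (39.4% of all genes) and knockdown 2 alone for 7 (31.8%). The number above was 10 to 19, with 19 for either single array (38.4% of all genes for knockdown 1, 41.7% for knockdown 2). The members' median difference was 0.096 with dim genes left out, since these lie near 0, and 0.018 to 0.057 when each array was left out. The sign turned for Mmp24 with the mean of probe sets (-0.057). Leaving out each array in turn gave a range across 0 for Adamts9 (-0.45 to 0.29), Timp3 (-0.13 to 0.32), Timp1 (-0.068 to 0.22), Mmp13 (-0.027 to 0.38), Adamtsl3 (-0.042 to 0.20), Mmp14 (-0.052 to 0.021), Mmp24 (-0.12 to 0.16), Adamts10 (-0.10 to 0.062) and Adamts12 (-0.0022 to 0.037). The other 12 named members kept their sign in every alternative run but not their size. With the mean of probe sets the differences of Timp2, Adamts3, Adamts4 and Adamts16 were 0.051, 0.33, 0.15 and 0.51. Leaving out each array moved 7 of the 12 by over 1.5 times: Adamts16 (0.38 to 1.31), Adamts3 (0.35 to 0.98), Adamts6 (0.15 to 0.90), Adamtsl1 (0.18 to 0.49), Adamtsl2 (-0.62 to -0.11), Adamts1 (0.095 to 0.21) and Adamts5 (0.095 to 0.25); for Adamts5 the lowest value is without control 2 and for the others the extremes are without a knockdown array. The signal of dim members limits what could be seen of them.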
